A study of Chlorocebus sabaeus with 12 samples.

Results

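OSTalpha and OSTbeta (now SLC51A and SLC51B) are the subunits of the bile acid exporter of the basolateral membrane, and their transcripts were measured here in cells carrying one of 2 mutants of the bile acid receptor FXR. The members were every probe whose gene name in the scanner files is OSTalpha or OSTbeta. There were 3 such probes, 2 for OSTalpha and 1 for OSTbeta, among 41000 non-control probes. As genes they were 2 of the 20355 gene names tested. Expression was measured on 12 one-colour Agilent human arrays, with 3 arrays in each of 4 groups. All groups were COS-1 cells, a fibroblast-like kidney line of the African green monkey, transfected for 24 h with human FXR (gene NR1H4) that carried S154A or S154D. S154A replaces a serine of the receptor with alanine and S154D replaces the same serine with aspartate. The cells then received 0.1% DMSO, the solvent control, or the bile acid chenodeoxycholic acid (CDCA) at 50 mM for 24 h. That concentration is the labels' own, and its unit could not be checked here, so the dose may have been lower. The resulting groups are called S154A DMSO, S154A CDCA, S154D DMSO and S154D CDCA. No array with wild-type FXR or with untransfected cells was analysed here, so every response described is that of a mutant receptor placed in the cells from outside. The labels do not say whether the replicates were separate cultures, and the p-values measure the spread between these arrays, which may be technical.

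FXR is a nuclear receptor that binds bile acids and, usually with its partner RXR, switches on genes that limit their build-up in the cell. OSTalpha and OSTbeta work together: OSTalpha is a protein with several membrane-spanning segments, OSTbeta is a small protein with a single one, and neither reaches the cell surface as a working transporter without the other. The pair is best known from the ileum, where it passes reabsorbed bile acids from the enterocyte towards the portal blood, and it is also made in kidney and bile duct. Both genes are known direct targets of FXR. The altered serine is a known phosphorylation site for protein kinase C. Alanine cannot carry a phosphate, while aspartate has a negative charge.

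The probes are 60-base human sequences, and 2 of them are shown because the levels of each subunit rest on them.
OSTalpha: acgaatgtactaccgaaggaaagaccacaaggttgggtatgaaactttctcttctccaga
OSTbeta: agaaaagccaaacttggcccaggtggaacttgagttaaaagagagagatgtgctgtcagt
The files place the OSTalpha probe at chr3:197448296-197448355 and the OSTbeta probe at chr15:63132462-63132521 of the human build hg17. The second OSTalpha probe starts 84 bases further along chromosome 3, at chr3:197448380-197448439. Exon and UTR annotation of that build was not used here. The GC content was 43.3% for the main OSTalpha probe, 40% for the second and 45% for OSTbeta. No capitals are used because no base was singled out. The RNA was from the monkey, and the match of these human probes to the monkey transcripts was not tested. Which subunit's level was higher is therefore not read from these probes, and the subunits are compared by their changes between groups only.

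All levels are log2 intensities relative to the 75th percentile of the same array, so 0 is the level of that percentile. The intensity at that percentile ranged from 1234.4 to 2106.8, and 61.6% to 79.8% of the non-control spots were well above background, which is the scanner software's flag for a measured spot. The array S154A DMSO 1 had the highest share, 79.8%, and the other 11 arrays did not exceed 73.4%. NR1H4 ranged from 7.46 to 7.95, was well above background on each of the 12 arrays and did not pass the test in any comparison. Its level with S154D was -0.03 relative to S154A in CDCA (95% interval -0.36 to 0.30), so the array gave no difference in receptor transcript beyond that interval. Of the defining markers of a fibroblast-like line, 6 of 7 were well above background on all 12 arrays, and COL1A2 was so on 0. The corresponding count was 4 of 8 for kidney proximal tubule. It was 3 of 8 for hepatocytes (ALB, TF and SERPINA1, with APOB and CYP7A1 on 0 arrays). For ileal enterocytes it was 2 of 7 (CDH17 and MTTP, with FABP2 and SI on 0 arrays).

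OSTalpha rose strongly with CDCA in cells with S154A. The main probe was at 0.46, 0.76 and 0.23 on the S154A DMSO arrays and at 3.17, 3.01 and 2.92 on the S154A CDCA arrays. In intensity units these were 2904, 2652 and 1899 without the bile acid and 11800, 15000 and 13650 with it. The groups did not overlap, and the lowest CDCA array lay far above the highest DMSO array. The means were 0.48 ± 0.27 and 3.04 ± 0.13 (SD, n = 3 each). The difference was 2.55 ± 0.18 (log2, SE; 95% interval 2.16 to 2.95), or 5.88-fold (adjusted p = 0.000245, limma, two-sided). It had rank 2 by p-value among the 20355 genes. In these bulk samples, more responding cells and more transcript per cell cannot be told apart. In this comparison 0.133% of all genes were called at an adjusted p under 0.05, and 1 of the 2 members was among them. All 3 S154A DMSO arrays lay at the same position of their slides, and the part of position in this difference was not tested. Within slide 1 the difference was 2.46 and within slide 3 it was 2.95, each from 1 array a group.

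The second OSTalpha probe gave the same direction. It was at -3.46, -3.47 and -4.21 in S154A DMSO and at -1.40, -1.48 and -1.91 in S154A CDCA. These groups did not overlap either. The difference was 2.11 ± 0.26 (log2, SE; 95% interval 1.54 to 2.69; adjusted p = 0.0123, limma over probes). At the level of probes 0.123% of 26898 were called in this comparison. Across the 12 arrays the levels of the 2 OSTalpha probes had a Pearson correlation of 0.98, and their deviations from the group means one of 0.88. These numbers describe probes of 1 gene read on the same arrays.

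With S154D, OSTalpha stayed near its DMSO level. The main probe was at 0.50, 0.65 and 0.25 in S154D DMSO and at 0.96, 0.53 and 0.49 in S154D CDCA. The groups overlapped, and 1 array with CDCA, the first, lay above all others. The means were 0.47 ± 0.20 and 0.66 ± 0.26 (SD, n = 3 each), and the difference was 0.19 ± 0.18 (log2, SE; 95% interval -0.20 to 0.58; adjusted p = 0.494, limma). The interval excludes a rise of the size seen with S154A. The second probe gave 0.28 ± 0.26 (95% interval -0.29 to 0.86; adjusted p = 0.496). This was a comparison in which 10.2% of all genes were called, and 0 of the 2 members were among them.

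Without the bile acid, the OSTalpha levels with the 2 mutants were close. S154D DMSO minus S154A DMSO was -0.02 ± 0.18 (log2, SE; 95% interval -0.41 to 0.38; adjusted p = 0.999, limma). The second probe gave -0.26 ± 0.26 (95% interval -0.84 to 0.31). In this comparison 0% of genes were called by limma, while 884 had an unadjusted p under 0.05. OSTalpha and OSTbeta were not among the called genes.

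In CDCA, OSTalpha was lower with S154D than with S154A. On the main probe the difference was -2.38 ± 0.18 (log2, SE; 95% interval -2.77 to -1.98; adjusted p = 0.000291, limma). The second probe gave -2.09 ± 0.26 (95% interval -2.67 to -1.52; adjusted p = 0.00874, limma over probes). Every S154D array lay below every S154A array on both probes. In this comparison 0.403% of genes and 0.357% of probes were called. It uses the same S154A CDCA arrays as the comparison with S154A DMSO above, so the 2 are not separate evidence. S154D CDCA 1 and 3 lay on slide 2, which held no S154A CDCA or S154D DMSO array. Only slide 3 held both groups of this comparison, and the same holds for the CDCA response with S154D. With the slide as a block the main probe gave -2.52 between the mutants in CDCA (adjusted p = 0.0483, limma).

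The response of OSTalpha itself differed between the mutants. The S154D response minus the S154A response was -2.36 ± 0.25 (log2, SE; 95% interval -2.91 to -1.81; adjusted p = 0.0209, limma), which had rank 1 by p-value. In this comparison 0.147% of genes were called, and 1 of the 2 members was. The second probe gave -1.83 ± 0.37 (95% interval -2.64 to -1.02) and was not called (adjusted p = 0.0621), where 0.219% of probes were. The call of the main probe was lost, with the size between -2.42 and -2.23, when any of 6 arrays was left out. These were S154A DMSO 1 (adjusted p = 0.0804), S154A DMSO 3 (0.0808), S154A CDCA 3 (0.0575), S154D DMSO 1 (0.0707), S154D CDCA 2 (0.06) and S154D CDCA 3 (0.0586). It was also lost with the slide as a block (-2.56, adjusted p = 0.297), without slide 4 (-2.28, adjusted p = 0.063), on the intensities without scaling (-2.08, adjusted p = 0.155) and without the filter on dim probes (-2.36, adjusted p = 0.0869).

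**Figure D1:**
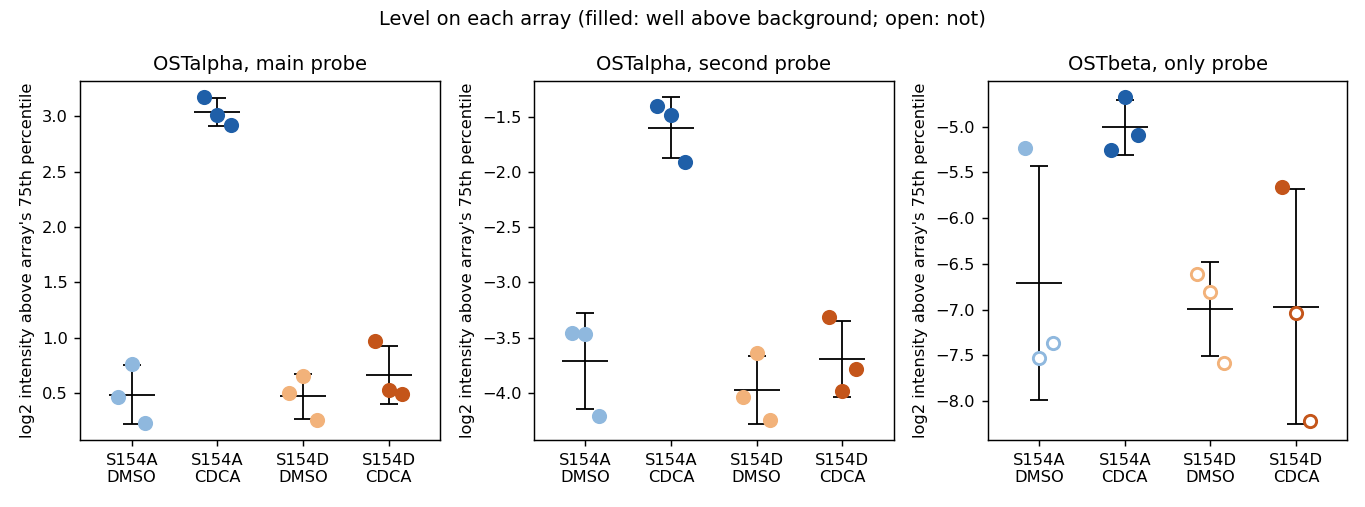
Level of each probe on each array, as log2 intensity above the 75th percentile of the array, by group; points are arrays, filled where the spot was well above background and open where it was not, and the bars are the group mean ± SD (n = 3). The S154A CDCA arrays stand apart on both OSTalpha probes (2.92 to 3.17 on the main one), while OSTbeta was well above background on 5 arrays, and each panel has its own scale.

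OSTbeta was at the edge of detection. Its probe was well above background on 5 of 12 arrays: all 3 S154A CDCA arrays, S154A DMSO 1 and S154D CDCA 1. In S154A DMSO it was at -5.23, -7.53 and -7.37, in S154A CDCA at -5.26, -4.68 and -5.09. The corresponding intensities were 55.95, 8.52 and 9.83 without the bile acid and 34.19, 72.44 and 52.74 with it. The values of S154A DMSO 2 and 3 are surrogates, which the software writes where a spot is not distinguishable from background. Array S154A DMSO 1 was about as high as the CDCA arrays, so the groups overlapped.

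The means of OSTbeta were -6.71 ± 1.28 in S154A DMSO and -5.01 ± 0.30 in S154A CDCA (SD, n = 3 each; well above background on 1 and on 3 arrays). The difference was 1.70 ± 0.69 (log2, SE; 95% interval 0.17 to 3.23), and it did not pass the test over all genes (unadjusted p = 0.0328, adjusted p = 0.82, limma). Without S154A DMSO 1 it was 2.44, also not called (adjusted p = 0.663). The size depends on how dim spots are treated: it was 0.44 with normexp background correction and 0.43 with dim spots raised to the lowest signal well above background of their array. Within slide 1, which holds S154A DMSO 1, it was 0.14, and within slide 3 it was 2.11, each from 1 array a group. The OSTbeta probe was kept only through S154A CDCA, the group in which it was high, so this difference is a description only.

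With S154D, OSTbeta had no group in which it was measured on every array. It was at -6.61, -6.81 and -7.58 in S154D DMSO, where it was not well above background on any array. In S154D CDCA it was at -5.66, -7.04 and -8.22, with 1 array well above background. Intensities were 16.3, 14.09 and 6.77 in DMSO and 39.15, 9.41 and 6.56 in CDCA. The values of S154D DMSO 3 and S154D CDCA 3 are surrogates. The CDCA arrays spanned the whole DMSO range. The difference was 0.03 ± 0.69 (log2, SE; 95% interval -1.50 to 1.56; adjusted p = 0.984, limma), and no fold is given because the DMSO side has only a bound. It was -0.63 without S154D CDCA 1, -0.26 without S154D DMSO 3 and 0.65 without S154D CDCA 3, and 0.92 with the slide as a block.

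In DMSO, OSTbeta was at -0.29 ± 0.69 (log2, SE) with S154D relative to S154A (95% interval -1.82 to 1.24; adjusted p = 0.999, limma), and 0.45 without S154A DMSO 1. OSTbeta was well above background on 1 S154A DMSO array and on 0 S154D DMSO arrays, so this is a fitted value and not a measurement. In CDCA it was at -1.96 ± 0.69 with S154D relative to S154A (95% interval -3.49 to -0.43; unadjusted p = 0.0171, adjusted p = 0.139). This value was -0.55 with normexp background correction (adjusted p = 0.115), -1.07 with dim spots raised to the floor (0.0805) and -1.06 with the slide as a block (0.552). In CDCA every S154D array lay below every S154A array, which held for 7.6% of all genes in that direction. OSTbeta was tested only because it was well above background on every S154A CDCA array. Its standing higher in that group is therefore a description only. For S154A CDCA against S154A DMSO, OSTalpha was among the 3.69% of genes whose groups did not overlap and were higher with CDCA, and OSTbeta was not. The difference of the OSTbeta responses was -1.67 ± 0.98 (95% interval -3.84 to 0.49; adjusted p = 0.338), and -0.36 with the slide as a block. It was -2.41 without S154A DMSO 1 and -1.05 without S154D CDCA 3.

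**Figure D2:**
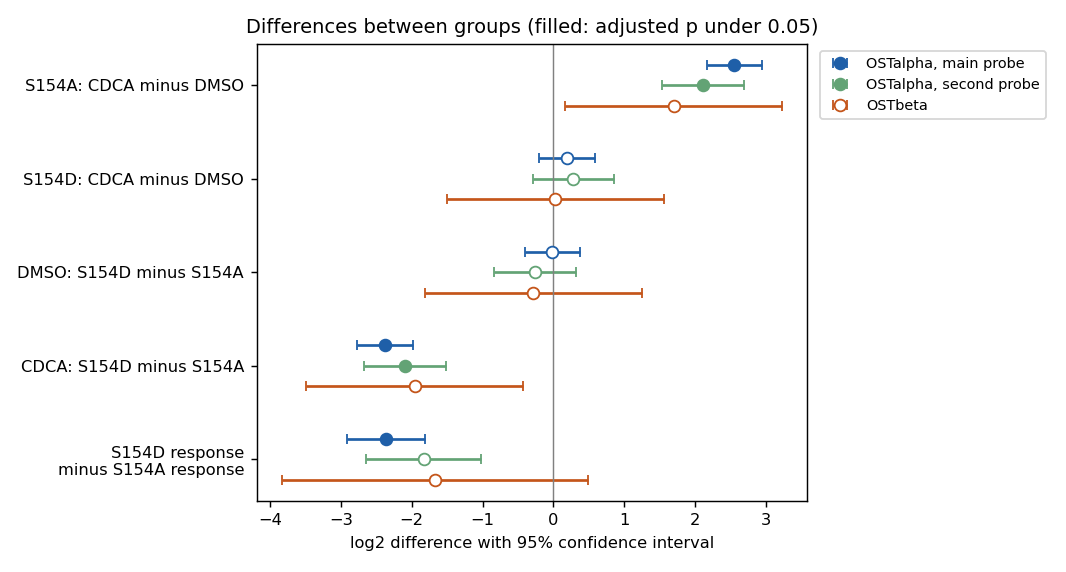
Log2 differences between groups for both OSTalpha probes and for OSTbeta, with 95% confidence intervals from limma on 12 arrays; filled points had an adjusted p under 0.05. The OSTbeta intervals are wide (0.17 to 3.23 for the response with S154A, against 2.16 to 2.95 for OSTalpha).

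The subunits' responses were then compared with each other. On each array the OSTbeta value was subtracted from the OSTalpha value. The size of this gap mixes 2 probes and is not interpreted, and its change with CDCA is the excess of the OSTalpha response. With S154A the excess was 0.86 on the log2 scale, where the gap had an SD of 1.34 over the 3 DMSO arrays and of 0.37 over the 3 CDCA arrays. An exact permutation test, two-sided, gave p = 0.4, but 3 arrays against 3 cannot go below 0.1, so it could not have passed the threshold. With the second OSTalpha probe it was 0.41. Without S154A DMSO 1 the excess was 0.11, and without S154A DMSO 2 it was 1.40. It was 2.13 with normexp background correction, 2.12 with dim spots raised to the floor and 2.32 within slide 1. These values show neither that the subunits' responses differed nor that they were alike.

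With S154D the excess was 0.17, and 0.25 with the second OSTalpha probe. The same exact permutation test, two-sided, gave p = 0.8 and again could not go below 0.1. The excess is a description only, because OSTbeta was not well above background on any S154D DMSO array. It was 0.67 without S154D CDCA 1, -0.37 without S154D CDCA 3 and -0.016 without S154D DMSO 1, so its direction is not settled.

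Over the 12 arrays the OSTbeta level had a Pearson correlation of 0.75 with the main OSTalpha probe and of 0.79 with the second. The deviations from the group means correlated at 0.40 and 0.51. These values describe probes read on the same arrays in the same 4 groups. The deviations of OSTbeta also correlated at 0.68 with the deviations of the share of spots well above background over the 12 arrays. Within a group, arrays with more spots detected thus tended to have more OSTbeta. S154A CDCA 2 went the other way, with the lowest share of all arrays, 61.6%, and the highest OSTbeta level, -4.68. The arrays S154A DMSO 1 (79.8% of spots) and S154D CDCA 1 (73.4%) had the highest shares, and they are the arrays outside S154A CDCA on which OSTbeta was well above background. The part of this in the OSTbeta values was not tested.

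**Figure D3:**
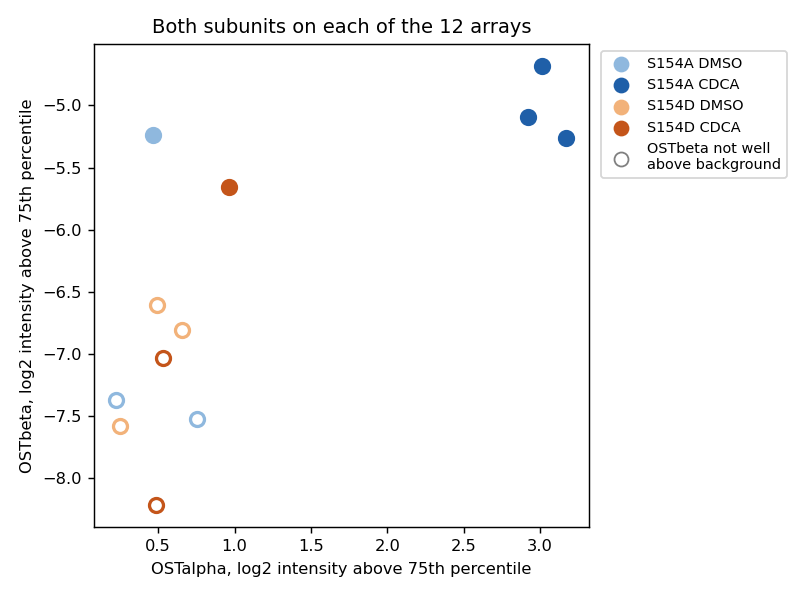
OSTbeta level against OSTalpha level on each of the 12 arrays, both as log2 intensity above the 75th percentile, coloured by group and open where OSTbeta was not well above background. The 3 S154A CDCA arrays lie apart along the OSTalpha axis (2.92 to 3.17), whereas along the OSTbeta axis S154A DMSO 1 (-5.23) lies within their range of -5.26 to -4.68.

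Of the 12626 named genes compared, those whose levels over the 12 arrays were most like OSTalpha were SLCO2A1, RBP4, RGS16, BAIAP2L2, FETUB and SDC1, with Pearson correlations of 0.97 to 0.99. SLCO2A1, a prostaglandin uptake transporter, was first at 0.99. Its difference with CDCA in S154A was only 0.44 and did not pass the test (adjusted p = 0.137, limma), against 2.55 for OSTalpha. RBP4, the plasma carrier of retinol, rose by 2.21 (adjusted p = 0.000245), and BAIAP2L2, an adaptor that binds curved membranes, by 1.42 (adjusted p = 0.000245). FETUB, a secreted fetuin, rose by 1.71 (adjusted p = 0.00409), and SDC1, a cell-surface proteoglycan, by 1.14 (adjusted p = 0.00525). RGS16, which speeds up the shut-off of G proteins, rose by 0.90 (adjusted p = 0.012). Its call was lost without S154A DMSO 1 (adjusted p = 0.0732), S154A DMSO 3 (0.0678), S154A CDCA 1 (0.0802) or S154A CDCA 2 (0.0575). None of the 6 was called with S154D, where their differences lay between -0.10 and 0.26. The genes were chosen for following OSTalpha over these same arrays, so this pattern comes with the choice and supports nothing. OSTbeta had rank 80 in this order, at 0.75.

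The genes most like OSTbeta were others: IL17B (0.94), TNNI2 (0.87), EDN3 (0.85), SLURP1 (0.85), FGF19 (0.84) and FABP6 (0.83), and OSTalpha had rank 34. They too were chosen on these same arrays, so their pattern supports nothing. OSTbeta was well above background on 5 of 12 arrays, so this order rests in part on values near background. OSTbeta, IL17B, EDN3 and FGF19 passed the filter only through S154A CDCA. IL17B, a cytokine, was well above background on 1 S154A DMSO array, on all 3 S154A CDCA arrays and on 1 S154D CDCA array, as OSTbeta was. EDN3, an endothelin, had the same counts. The deviations from the group means of OSTbeta correlated at 0.97 with those of IL17B, 0.94 with FABP6 and 0.90 with SLURP1. For OSTalpha the deviations correlated best among its 6 genes with RBP4, at 0.92. Of the 6 genes most like OSTbeta, FGF19 and FABP6 were called with S154A. IL17B differed by 0.85 (adjusted p = 0.904), TNNI2, a troponin subunit of muscle, by 0.65 (adjusted p = 0.426), EDN3 by 2.85 (adjusted p = 0.167) and SLURP1 by 1.09 (adjusted p = 0.902). In CDCA TNNI2 was lower with S154D than with S154A, at -1.04 (adjusted p = 0.0286), a call lost without any 1 of 8 arrays, all but S154A DMSO 1 and 2, S154D DMSO 2 and S154D CDCA 1.

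**Figure D4:**
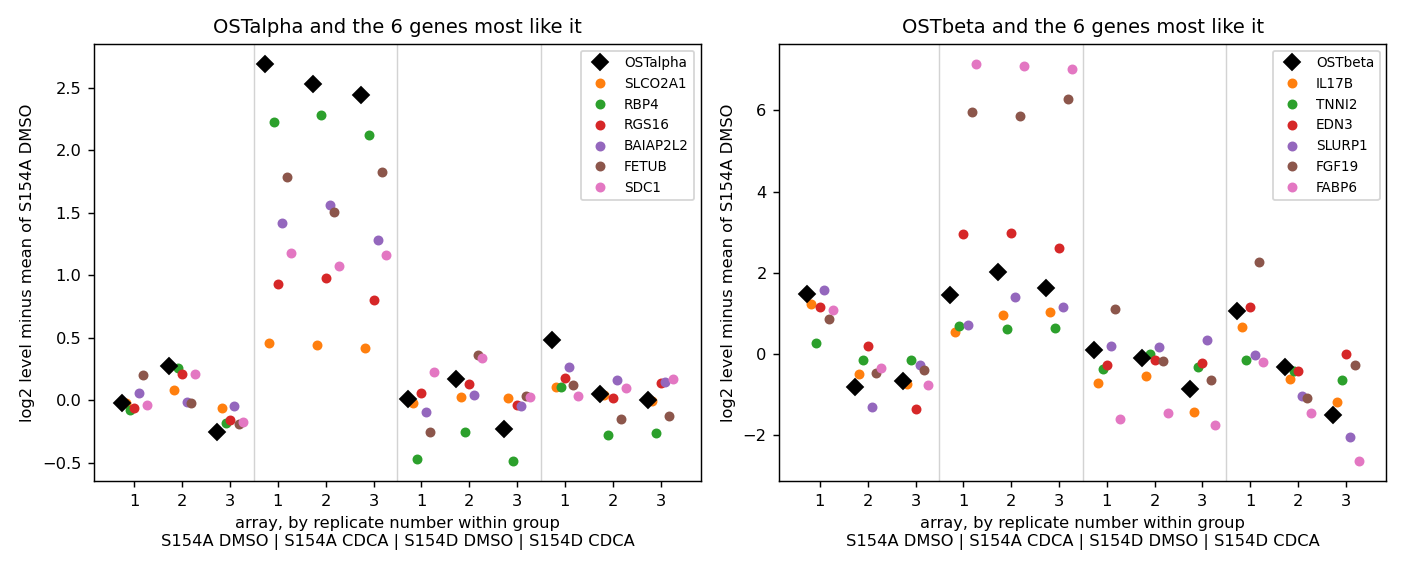
Levels of OSTalpha (left, black diamonds) and OSTbeta (right, black diamonds) with the 6 genes most correlated with each, as log2 level minus the gene's mean in S154A DMSO, on each array by group and replicate number. On the left the S154A CDCA arrays stand above the other groups for every gene, least for SLCO2A1 (0.44 on average). On the right OSTbeta and each of the 6 genes are higher on S154A DMSO 1 than on the other S154A DMSO arrays. On that array only OSTbeta, IL17B and SLURP1 reach their S154A CDCA levels, and TNNI2, EDN3, FGF19 and FABP6 stay below theirs.

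Set beside other known FXR targets, the 2 subunits fell on either side of the call. Of 40 such genes listed without the 2 subunits, 39 were on the array and 24 were tested. With S154A 5 of the 24 rose and 0 fell, where 0.133% of all genes were called: FABP6, FGF19, HRG, FETUB and SDC1. FGF19 and HRG passed the filter only through S154A CDCA, the group in which they were high. The list was also chosen with earlier results of these data known, so this count is a description only. FABP6, the bile acid binding protein of the ileal enterocyte, rose by 7.08 ± 0.57 (log2, SE; adjusted p = 0.000621, limma). FGF19, the hormone by which the ileum restrains bile acid synthesis in the liver, was not well above background on any S154A DMSO array and was at least 23.9-fold higher in S154A CDCA (adjusted p = 0.012). That bound sets the CDCA mean against the lowest signal well above background of each DMSO array. FGF19 was no longer called without any 1 of 5 arrays, S154A DMSO 2 or 3 or S154A CDCA 1, 2 or 3 (adjusted p = 0.057 to 0.0894). HRG, a plasma glycoprotein, rose by 3.24 ± 0.34 (adjusted p = 0.00453) and was well above background on 1 of the 3 S154A DMSO arrays. The median over the 24 was -0.04, as it was over all genes tested, and 11 of the 24 values were above 0. Other members with low p-values were ASS, an enzyme of the urea cycle, at 0.73 (adjusted p = 0.214), and ICAM1, an adhesion protein, at -0.66 (adjusted p = 0.831). ICAM1 was well above background on 1 S154A DMSO array and 1 S154A CDCA array, so its difference rests largely on values near background.

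With S154D, where 10.2% of all genes were called, 0 of the 24 targets rose and 1 fell, which is no more than the share over all genes: ASS, by 0.84 on the log2 scale (adjusted p = 0.0273). That call was lost without S154D DMSO 1, S154D DMSO 3 or S154D CDCA 3, and with correction for probe GC content. In DMSO 0 of the 24 were called. In CDCA, where 0.403% of all genes were called, 6 were lower with S154D than with S154A and 0 were higher: the 5 named and ASS (-1.29, adjusted p = 0.00652). FGF19 was no longer called there without S154A CDCA 3 or S154D CDCA 3. The same S154A CDCA arrays are used, and FGF19 and HRG were tested only through them. The limits of the chosen list hold here and for the difference of the responses, so these counts are descriptions only. Over the difference of the responses, where 0.147% of all genes were called, 5 were lower (FABP6, FETUB, ASS, SDC1 and HRG), and FGF19 was not called (-5.83, adjusted p = 0.0623). The medians over the 24 were -0.08 with S154D, -0.17 between the mutants in CDCA and -0.15 for the difference of the responses, beside -0.01, 0.06 and 0.04 over all genes. That count of 5 was 4 without S154A CDCA 1 or S154D CDCA 1, 2 without S154A CDCA 2, 1 without S154A DMSO 1 or S154D DMSO 2, and 0 without any 1 of the other 7 arrays.

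Among other carriers of bile acids and related anions, 30 genes were listed, 27 were on the array and 14 were tested. With S154A only FABP6 of the 14 was called. SLC22A7, an organic anion transporter, was at -0.38 (adjusted p = 0.823) and ABCC6, a member of the MRP family, at 0.17 (adjusted p = 0.906). ABCC4, an export pump also found at the basolateral membrane, was at 0.06 with S154A (adjusted p = 0.972) and at 0.37 with S154D (adjusted p = 0.0984). The apical uptake carrier of the ileum, SLC10A2, was well above background on 1 array, as were the export pump ABCB11 and the hepatic uptake carrier SLC10A1, and none of these was tested. With S154D 2 of the 14 were called, beside 10.2% of all genes. SLCO2B1, an organic anion uptake carrier, rose by 1.15 (adjusted p = 0.0354), and its relative SLCO3A1 was lower, at -0.69 (adjusted p = 0.0275). Both calls were lost with the slide as a block, with correction for probe GC content and without S154D DMSO 1, S154D DMSO 3 or S154D CDCA 3, and that of SLCO2B1 also without S154A DMSO 1, S154A DMSO 3 or S154D CDCA 1. In DMSO 0 of the 14 were called. In CDCA FABP6 and SLCO3A1 (-0.72, adjusted p = 0.0483) were lower with S154D, the call of SLCO3A1 being lost without any array but S154D DMSO 2, and for the difference of the responses FABP6 was. The medians over the 14 were -0.03 with S154A and -0.03 with S154D, beside -0.04 and -0.01 over all genes.

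Of 23 genes for FXR, its partners and related receptors, 22 were on the array and 19 were tested. None was called with S154A, in DMSO, between the mutants in CDCA or for the difference of the responses. With S154D 2 of the 19 were called, which is near the 10.2% over all genes and no result about the list. RXRB, a partner of FXR, was lower, at -0.78 (adjusted p = 0.046), and so was PRMT1, an arginine methyltransferase that acts with FXR, at -0.40 (adjusted p = 0.0415). Both calls were lost with the slide as a block and with correction for probe GC content. That of RXRB was also lost without any array but S154D CDCA 1, and that of PRMT1 without any array but the 3 of S154A CDCA. RXRA, the partner usually named with FXR, was at 0.23 with S154A (adjusted p = 0.91) and at -0.08 with S154D (adjusted p = 0.787). NR0B2, the corepressor SHP, was well above background on 2 arrays and was not tested.

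**Figure D5:**
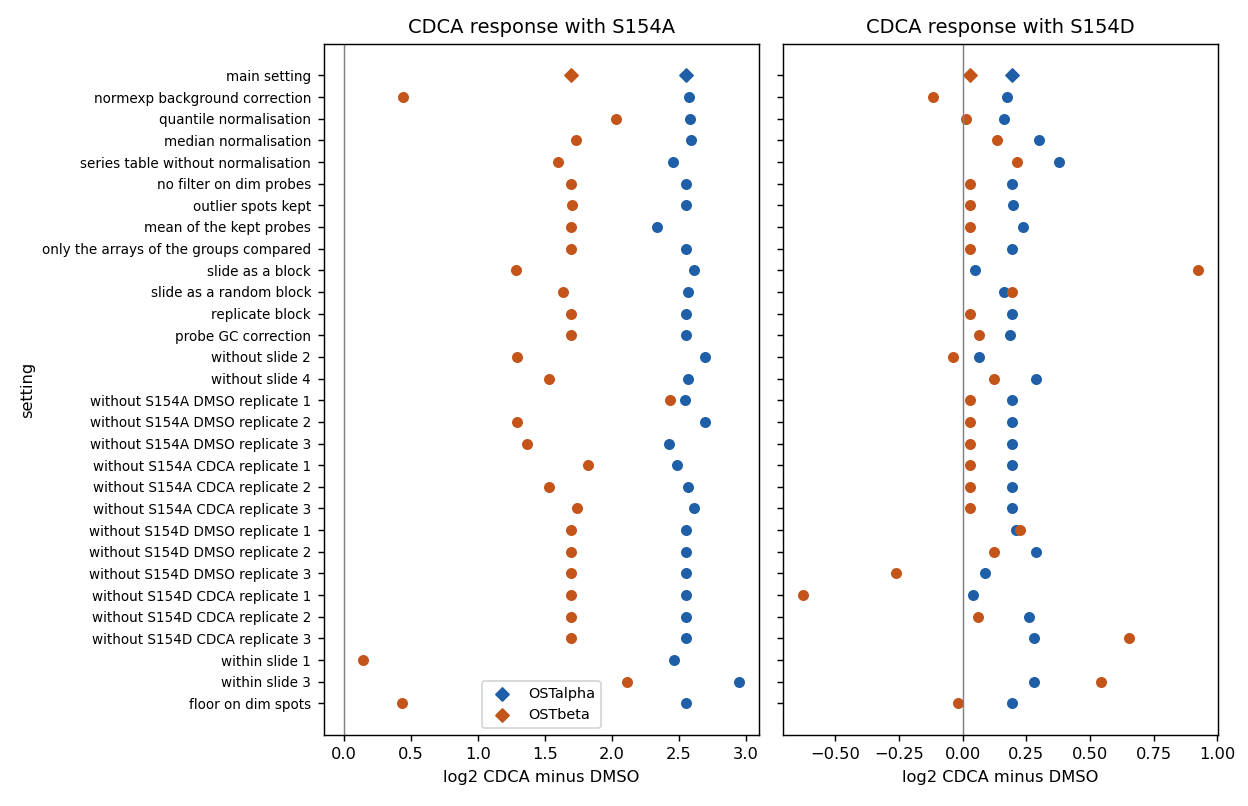
Response to CDCA (log2 CDCA minus DMSO) of OSTalpha and OSTbeta with S154A (left) and S154D (right) under each setting that gave a value for both subunits, 1 point a subunit and setting, with diamonds for the main setting. With S154A OSTalpha lies between 2.33 and 2.95, while OSTbeta runs from 0.14 to 2.44; the horizontal scales of the 2 panels differ.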

How the data were processed

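RNA of COS-1 cells was read on 12 arrays. Per the file headers, Agilent Feature Extraction 9.5.3.1 produced the deposited intensity values (background-subtracted and detrended), while the submitters' processing notes give version 12. The series table deposited by the authors held the same intensities, with no scaling between arrays. Here log2 intensity was taken relative to the 75th percentile of each array's non-control spots, without spots flagged as outliers (66 to 196 an array). A probe was kept if 1 or more groups had it well above background on each of their 3 arrays (26898), and the brightest stood for its gene (20355). Groups were compared with limma 3.58.1 in R 4.3.3, with 1 mean a group over all 12 arrays, 8 residual and 2.3 prior degrees of freedom, two-sided, with Benjamini-Hochberg adjustment over all genes and a threshold of 0.05. The code was tested on simulated data. The number of arrays limits the precision. Genes named are the members, NR1H4, list members called or with the lowest p-values, and the 6 genes most correlated with each member. RXRA, NR0B2, ABCB11, SLC10A1 and SLC10A2 were named after their values were seen. The members and the lists were chosen with earlier results of these data known.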

Additional observations from a re-analysis of the deposited data

Results flagged for a closer look

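The response to CDCA differed between the mutants, by limma's test of the difference itself, for 8 of the genes named. The difference, as the S154D response minus the S154A response on the log2 scale, was -2.36 for OSTalpha (adjusted p = 0.0209). It was -6.92 for FABP6 (adjusted p = 0.0209), -3.16 for HRG (0.0462), -1.95 for RBP4 (0.0209) and -1.8 for FETUB (0.036). It was -1.57 for ASS (0.036), -1.23 for SDC1 (0.0372) and -1.2 for BAIAP2L2 (0.0209). Over all genes called for this difference 9 were higher and 21 lower, and the shared sign of these 8 follows from how they were chosen. Leaving out 1 array ended the call in 6 of 12 fits for OSTalpha and RBP4, 8 for FABP6, 9 for BAIAP2L2 and FETUB, 10 for ASS and 11 for HRG and SDC1. HRG was not well above background on any S154D CDCA array, so its difference is a fitted value and not a measurement, and in CDCA it was at least 9.78-fold higher with S154A than with S154D (adjusted p = 0.0022, limma; measured means -2.94 and -6.38). FABP6 was well above background on 1 of 3 S154D DMSO arrays and on 2 of 3 S154D CDCA arrays. The S154D side of its difference therefore rests in part on values near background. Single arrays were not tested for standing apart, because each group has 3.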

How the results depend on the processing

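Under the settings tried, leaving out each array included, the OSTalpha response with S154A stayed called (adjusted p = 2.52e-05 to 0.0185), as did OSTalpha between the mutants in CDCA (8e-05 to 0.0483). OSTbeta with S154A was not called under any (0.143 to 1). The cause of the changes below was not tested. The difference of the OSTalpha responses was no longer called on intensities without scaling (-2.08), without the filter on dim probes (-2.36), with the slide as a block (-2.56), without slide 4 (-2.28) and on the second probe (-1.83). On the main probe leaving out 1 array gave -2.51 to -2.23. Quantile normalisation brought OSTbeta between the mutants in CDCA just past the threshold (-1.99, adjusted p = 0.0494). Since its probe was kept only through S154A CDCA, that call is a description only. The same difference was -0.55 with normexp, -1.07 with the floor on dim spots and -1.06 with the slide as a block, not called. Values near 0 changed sign. OSTalpha between the mutants in DMSO was 0.078 with normexp, 0.041 with the slide as a block, 0.12 without slide 2 and -0.14 to 0.12 without 1 array. OSTbeta there was 0.012 with normexp, 0.031 with quantile normalisation, -1.37 within slide 1 and -0.70 to 0.45 without 1 array. OSTbeta with S154D was -0.12 with normexp, -0.039 without slide 2, -0.017 with the floor on dim spots, 0.92 with the slide as a block and -0.63 to 0.65 without 1 array. The OSTbeta response with S154A was 0.14 within slide 1. The excess of OSTalpha over OSTbeta with S154A was 2.13 with normexp, 2.12 with the floor and 2.32 within slide 1. Within slide 3 OSTalpha gave 2.95 with S154A, -2.64 between the mutants in CDCA and -2.67 for the difference. Called genes over all genes ranged from 7 to 30 with S154A, 0 to 2591 with S154D, 0 to 1 in DMSO, 3 to 271 in CDCA and 0 to 118 for the difference. With S154D 0 genes were called by limma with the slide as a block (4508 at an unadjusted p under 0.05), with correction for probe GC content (4119) or with a replicate block (6116). The replicate block also left 53 called genes in CDCA and 6 for the difference, against 82 and 30. Same-numbered arrays did not all deviate together (correlations -0.21 to 0.14, -0.35 to 0.51 and 0.07 to 0.37 for numbers 1, 2 and 3). With a replicate block the OSTalpha response with S154A stayed at 2.55 (adjusted p = 0.000936), and no call on OSTalpha or OSTbeta changed. It ended the calls of ASS, PRMT1, RXRB, SLCO2B1 and SLCO3A1 with S154D, of SLCO3A1 in CDCA, and of ASS, BAIAP2L2, FETUB, HRG and SDC1 for the difference. OSTalpha with S154D moved with the scaling, from 0.19 to 0.30 with the median and to 0.38 without scaling, and was not called. The floor and the use of the second probe alone were chosen after seeing the data. The filter requiring all 12 arrays gave no OSTbeta value. The signal of OSTbeta, well above background on 5 of 12 arrays, limits its comparisons.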
